A study of Mus musculus with 30 samples.

Results

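The ribosomal protein pseudogenes read in mouse quadriceps were taken as the genes whose symbol begins with Rpl or Rps and contains -ps, with 10 or more counts in at least 3 of the 30 libraries. This gave 92 of 322 such genes in a count table of 56748 genes, 52 of them named for a large-subunit (Rpl) and 40 for a small-subunit (Rps) protein. The symbol before -ps named 44 parent genes, 19 of which had 1 pseudogene in the list and none more than 5. The members were chosen by their raw counts over all libraries, so their levels are a description. Just inside the rule lay Rps4x-ps, which reached 10 counts in the third of its libraries by rank, and just outside lay Rpl30-ps1 and Rpl31-ps9, which reached 9 there. Of the 230 genes left outside, 108 were at 0 in every library.

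Ribosomal protein genes make the protein parts of the small and large ribosomal subunits and are among the most actively transcribed genes of every tissue. Their spliced messages have repeatedly been copied back into the genome by the reverse transcriptase of mobile elements, which leaves processed pseudogenes without introns on other chromosomes. Such a copy can be nearly identical to the message of its parent, so that a short read from either can match both places, and its count then depends on the mapping and counting steps. How such reads were treated here was not given in the sources used here.

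The libraries were made from poly(A)-selected RNA of the quadriceps of mice injected by tail vein at 8 weeks of age and killed 2 weeks after the last injection. WT mice (n = 5) were FVB/N animals without treatment. All other mice were of line HSA-LR20b, bred homozygous on FVB/N, in which a human skeletal actin transgene with a long CTG repeat is expressed in skeletal muscle, so that the line models the muscle features of myotonic dystrophy type 1 (DM1). They were nontreated (NT, n = 8) or were given pacDNA-L9, a bottlebrush polymer that carries the locked nucleic acid antisense oligonucleotide L9 against the CUG repeat, with 4 mice at 5.3 mg/kg and 3 mice each at 21.2 and at 42.4 mg/kg, the higher doses being split over several injections. The controls were free L9 at 5.3 mg/kg (n = 3), the polymer alone (Brush, 40 nmol, n = 2) and a polymer conjugate of a scrambled oligonucleotide (pacDNA-Scr, n = 2) dosed at 5.3 mg/kg.

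The labels number the libraries as 2 deposited sets. The first set holds 24 libraries. The second holds 6 (free L9 C, NT 7, NT 8, 21.2 mg/kg C and, at 5.3 mg/kg, C and D), whose labels give no strain. In 5 of the second-set libraries, that is in every one but free L9 C, the 37 mitochondrial genes had no counts at all, and these 5 are given apart from free L9 C below. Library totals ran from 13605309 to 26956558 counts, the lowest being free L9 C. Between libraries, levels are given as CPM, library counts scaled to a common total after TMM normalization. In bulk tissue, fewer cells of a type and less RNA per cell cannot be told apart. Nothing in the labels says whether mice of a group shared a litter or cage, so p-values measure the spread between these mice.

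The sequences that separate a pseudogene from its parent decide where a read can be placed, so windows of 150 bases, the read length, are shown for 4 families described below. They are GRCm39 reference bases (C57BL/6J), not bases read from these FVB/N mice, and follow the coding strand, with parent windows spliced across their introns. Capitals mark bases that differ between the parent and any copy shown, in the parent, and bases that differ from the parent, in a copy. The Rpl35a window (chr16:32877868-32879153, plus strand) differed by 1 base from Rpl35a-ps6 (chr5:123393608-123393757, minus strand) and by 3 bases from Rpl35a-ps5 (chr5:33233501-33233650, plus strand). Rpl35a-ps6 had the same bases over the whole coding sequence as 3 other members, Rpl35a-ps2, -ps3 and -ps4.
Rpl35a: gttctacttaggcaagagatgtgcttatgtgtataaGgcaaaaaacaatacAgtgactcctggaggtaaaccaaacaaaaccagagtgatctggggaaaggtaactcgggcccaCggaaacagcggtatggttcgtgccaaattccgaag
Rpl35a-ps6: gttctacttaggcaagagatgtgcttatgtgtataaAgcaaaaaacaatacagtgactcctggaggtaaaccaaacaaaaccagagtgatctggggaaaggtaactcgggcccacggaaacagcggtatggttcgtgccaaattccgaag
Rpl35a-ps5: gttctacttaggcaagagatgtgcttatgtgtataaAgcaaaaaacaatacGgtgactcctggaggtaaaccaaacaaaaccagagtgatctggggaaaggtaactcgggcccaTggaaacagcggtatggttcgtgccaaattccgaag
The Rps18 window (chr17:34171020-34171271, minus strand) differed by 1 base from Rps18-ps5 (chr13:28441925-28442074, plus strand), by 2 bases from Rps18-ps3 (chr8:107989425-107989574, minus strand) and by 3 bases from Rps18-ps6 (chr13:97896641-97896790, minus strand).
Rps18: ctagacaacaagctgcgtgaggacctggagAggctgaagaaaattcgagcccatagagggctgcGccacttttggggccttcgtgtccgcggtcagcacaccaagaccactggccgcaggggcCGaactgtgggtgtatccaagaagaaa
Rps18-ps5: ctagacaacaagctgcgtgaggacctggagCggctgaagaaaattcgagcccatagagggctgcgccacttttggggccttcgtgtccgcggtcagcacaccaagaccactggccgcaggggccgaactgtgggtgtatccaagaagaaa
Rps18-ps3: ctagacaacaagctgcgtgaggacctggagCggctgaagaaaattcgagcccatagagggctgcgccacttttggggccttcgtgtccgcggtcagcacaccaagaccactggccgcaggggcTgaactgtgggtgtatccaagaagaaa
Rps18-ps6: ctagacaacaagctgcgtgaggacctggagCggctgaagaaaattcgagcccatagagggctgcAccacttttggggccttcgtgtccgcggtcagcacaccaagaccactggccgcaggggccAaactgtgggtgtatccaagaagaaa
Rpl34 (chr3:130522460-130522886, minus strand) and its member Rpl34-ps1 (chr6:71101650-71101799, plus strand) differed by 1 base, and Rps10 (chr17:27849441-27851306, minus strand) and Rps10-ps2 (chr16:20640895-20641044, minus strand) by 5 bases.
Rpl34: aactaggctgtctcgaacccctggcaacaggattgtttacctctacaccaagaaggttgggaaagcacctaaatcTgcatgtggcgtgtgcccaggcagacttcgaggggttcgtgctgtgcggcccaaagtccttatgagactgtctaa
Rpl34-ps1: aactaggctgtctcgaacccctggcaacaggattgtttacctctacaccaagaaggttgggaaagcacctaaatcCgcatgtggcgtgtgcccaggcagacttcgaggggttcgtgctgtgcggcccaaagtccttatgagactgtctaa
Rps10: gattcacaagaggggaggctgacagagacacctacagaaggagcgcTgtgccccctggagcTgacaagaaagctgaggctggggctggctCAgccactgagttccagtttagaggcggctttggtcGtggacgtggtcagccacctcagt
Rps10-ps2: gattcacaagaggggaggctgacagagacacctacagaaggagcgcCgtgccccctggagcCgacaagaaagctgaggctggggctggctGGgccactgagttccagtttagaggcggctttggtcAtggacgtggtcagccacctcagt

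Most members were close copies. In the reference genome, 14 of the 92 were identical to their parent over all aligned bases, 45 more had 1 to 5 mismatches and no gap, and identity ran from 87.5% to 100% with a median of 99.3%. In 78 members the longest run shared with the parent was at least as long as a read. The annotation (GENCODE vM39) listed 67 as processed pseudogenes, 21 as transcribed processed pseudogenes, 3 as protein coding (Rps18-ps6, Rpl9-ps6 and Rpl10-ps3) and 1, Rps18-ps4, as a long noncoding RNA. A single exon held 91 of them, over a median of 483 bases. They lay on 20 chromosomes, 11 of them on X and only 2 on the chromosome of their parent. An exon of another gene overlapped 27 members, 32 lay within an intron only, and 33 overlapped no other gene. Rps18-ps4 and Rps18-ps6 lie on opposite strands of the same stretch. They share 541 bases, of 2025 exon bases in Rps18-ps4 and 561 in Rps18-ps6. Strand was not given in the sources used here, so reads of the shared bases cannot be told apart.

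To see how far reads could be placed, each member was read in every window of 150 bases. Each window was looked up in the whole genome and in the spliced messages of the parent genes. In 18 members no window was found at that place alone, in 27 up to 50% of windows were, in 36 more than 50% were, and in 11 every window was. The median of the members' median counts was 86.8 in the first class, 149 in the second, 11 in the third and 12.5 in the fourth.

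The members took a small share of each library. In the first set, 0.0793% to 0.131% of counts lay on the 92 members (0.101% ± 0.0119, SD, n = 24), and 0.459% to 0.817% lay on their 44 parents. Members therefore held 12.6% to 15.9% of the counts of members and parents together. In the 5 second-set libraries this share was 17.9% to 19.2%, and in free L9 C it was 33.4%. Neither the first-set range, the range of the 5 libraries nor the value of free L9 C overlapped another.

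Most members lay far below their parent. By median count over the 30 libraries, 36 members had under 1% of the count of their parent, 31 had 1% to 10%, 16 had from 10% up to the level of the parent, and 9 lay above it. These 9 belonged to 6 parents. Rpl34-ps1 had a median of 1617 counts against 30 for Rpl34, which makes a large-subunit protein. Rps10-ps2 had 545 and Rps10-ps1 39 against 10 for Rps10, a small-subunit gene. Rps2-ps10 had 4007 and Rps2-ps13 1370 against 105.5 for Rps2. Rps18-ps5 had 1067 against 65 for Rps18, and Rpl35a-ps2 136.5 against 79 for Rpl35a. Rpl17-ps10 had 1194.5 and Rpl17-ps3 866.5 against 716 for Rpl17. The 3 highest median log2 ratios of member to parent were 5.87 for Rpl34-ps1, 5.73 for Rps10-ps2 and 5.09 for Rps2-ps10. The lowest were -12.33 for both Rps23-ps1 and Rps23-ps2 and -11.88 for Rpl13-ps3. Per base of exon, with the parent's exons taken over all its isoforms, 18 members lay above their parent.

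The parents themselves were unevenly read. Per kilobase of coding sequence, the median CPM of the 44 parents ran from 1.12 to 603, with a median of 267.9. The 5 lowest were Rps10 at 1.12, Rpl34 at 4.16, Rps2 at 5.91, Rps18 at 7.06 and Rpl35a at 12.1 CPM per kilobase. These were 5 of the 6 parents with a member above them, the other being Rpl17 at 66.0. Among the 35 cytosolic ribosomal protein genes with no member in the list the median was 319.8 CPM per kilobase, and Rpl29, Rpl24 and Rpl13a were among those under 30.

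The low parents were then set against the reference sequence, a comparison chosen after the values were seen. Of the 25 parents with 2 or more members, 12 had at least 1 coding base at which every member in the list carried the same base and the parent another. The first capital in the Rpl35a and Rps18 windows above is such a base. These 12 parents had a median level of 49.1 CPM per kilobase, against 287.9 for the 13 without such a base. The 19 parents with 1 member did not show this order, with a median of 302.3 for the 14 that differed from it at 1 or more coding bases and 243.0 for the 5 that did not. The 7 lowest of the 25 parents (Rps10, Rps2, Rps18, Rpl35a, Rpl3, Rpl30 and Rpl7a) all had one, and the lowest parent without was Rpl17 at 66.0. It was no fixed rule, since Rpsa with 2 such bases had 503.6 and Rps15a with 1 had 251.8 CPM per kilobase. Whether FVB/N mice carry the reference base of the parent or that of its copies at these places was not tested.

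**Figure D1:**
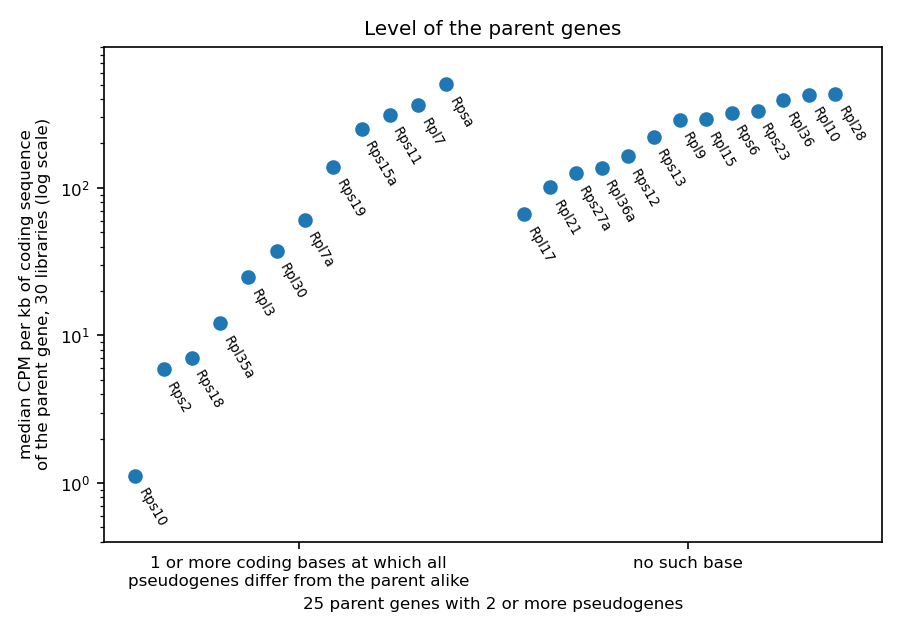
Median level of the 25 parent genes with 2 or more members, in CPM per kilobase of coding sequence over 30 libraries (log axis), with each parent as a point. The 12 parents with a coding base at which all their pseudogenes differ alike run from 1.12 to 503.6, and the 13 without run from 66.0 to 432.1.

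The division of counts within a family differed between families and between sets. Of the counts of parent and members together, Rps18 had at least 92.7% and Rps2 at least 96.2% on pseudogenes in every library. Rpl34 had 97.6% or more on its pseudogene in the first set, 93.0% or less in the 5 second-set libraries and 96.6% in free L9 C. Rps10 had 98.6% on pseudogenes in the first set (96.0% to 100%) but 23.5% to 55.3% in the 5 second-set libraries. Rpl17 separated the sets, with 73.0% to 91.1% on pseudogenes in the first set and 5.05% to 6.67% in the 5 libraries, and the ranges did not overlap. Rpl14, a large-subunit gene with 1 member, had 11.9% to 22.1% in the first set and 0.116% to 0.268% in the 5. Rpl35a went the other way, from a median of 68.5% (45.5% to 99.3%) in the first set to 96.4% to 97.6%. Rpl30 likewise had 2.17% to 57.8% in the first set and 67.3% to 70.8% in the 5 libraries. Free L9 C stood with the first set for Rpl17 (86.8%) and Rpl14 (15.8%), and lay just below it for Rps10 (94.6%). It was close to the other second-set libraries for Rpl35a (96.8%) and Rps18 (98.1%). Both values also lay within the first-set range, which for Rps18 was 92.7% to 100%.

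**Figure D2:**
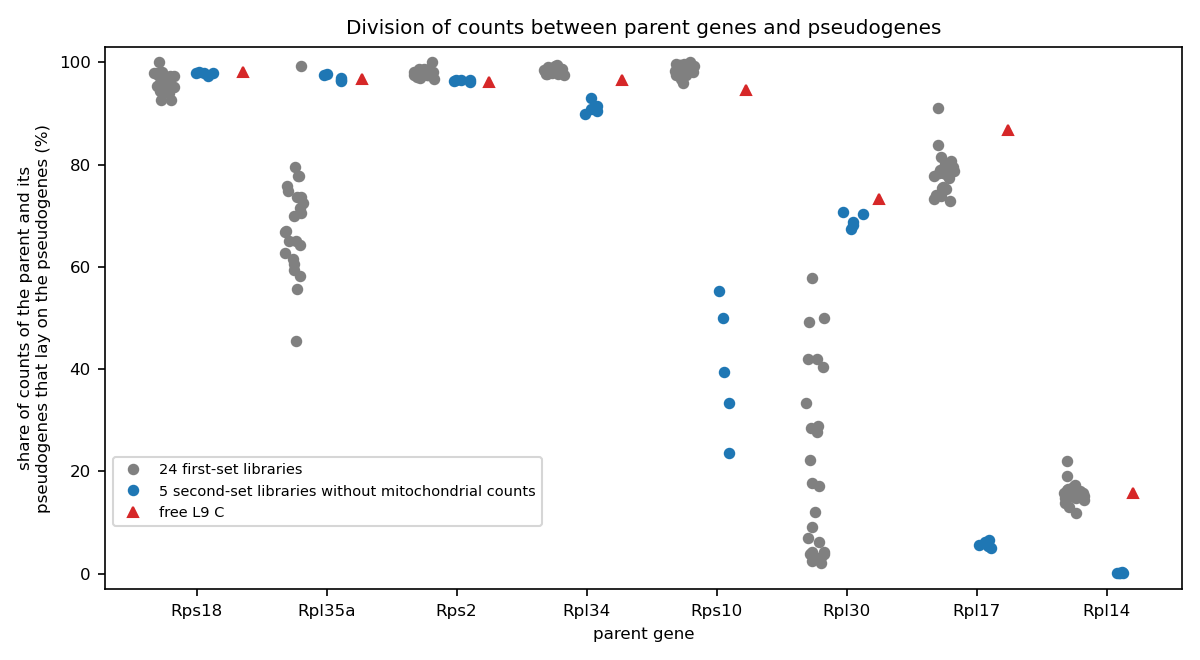
Share of the counts of a parent gene and its pseudogenes that lay on the pseudogenes (%, y axis) for 8 families (x axis), each point being 1 library. Rpl17 moves from 73.0% or more in the 24 first-set libraries to 6.67% or less in 5 second-set libraries, while free L9 C stays at 86.8%.

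The sum over a family changed less than its division in some families and more in others. For Rpl34 the summed CPM of parent and member had a median of 85.3 in the first set, 84.5 in the 5 libraries and 88.2 in free L9 C. For Rpl14 these sums were 195.7, 227.7 and 207.5 CPM, and for Rpl17 152.3, 207.2 and 278.4 CPM. In contrast, Rps18 with its members summed to 68.3 CPM in the first set, 255.7 in the 5 libraries and 303.1 in free L9 C. Rpl35a with its members summed to 11.2, 386.6 and 329.7 CPM in the same order. With 5 other Rpl35a pseudogenes that are not in the list, the sums were 43.7, 528.1 and 450.3 CPM. The Rps18 sum holds Rps18-ps4 and Rps18-ps6, at medians of 114.5 and 91.2 CPM in the 5 libraries and 0 in the first set. Reads of the bases that this pair shares cannot be told apart, so the sum may hold the same reads under both names. Rps10 with its members had medians of 31.0 CPM in the first set and 1.42 in the 5 libraries. Free L9 C, at 24.95 CPM, lay within the first-set Rps10 range (22.48 to 48.45). So in Rpl35a the family as a whole, and not only its division, differed between the first set and every second-set library. In Rps18 the sum differed too, but its higher level rested on Rps18-ps4 and Rps18-ps6. Of the rest, Rps18-ps5 was lower in the 5 libraries, with 14.7 to 29.2 CPM against 37.0 to 97.5 CPM in the first set. Rps18-ps3 and, by median, Rps18 itself were higher there. In Rps10 the family sum differed for the 5 libraries only.

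The sets were compared over all genes in a fit with 8 conditions and the deposited set, by the quasi-likelihood test of edgeR, adjusted by Benjamini-Hochberg. Of 17518 genes tested, 24.9% passed an adjusted p of 0.05, 18.6% higher and 6.34% lower in the second set. Among the 91 members tested, 65 passed, 26 higher and 39 lower, and 55 of the 91 had a negative log2 fold change. The rule had a part in this. A total of 29 members met it through the first set only and 10 through the second only, which favoured members higher in that set. Not all of these differed, since 15 of the 28 tested of the first kind passed, all lower. All 10 of the second kind passed, all higher. Of the 53 that met it in both sets, 40 passed, 16 higher and 24 lower. Of the 44 parents 14 passed, 12 of them higher and only Rpl39 and Rpl36 lower, with a median log2 fold change of 0.08. Over all members, those of 1 set included, in 12 cases a member that passed and a parent that passed went opposite ways, in 18 cases the same way, and in 35 cases the parent of a member that passed did not pass. Of the other 161 genes with -ps in their symbol and enough counts, 112 passed, which is a share like that of the members.

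**Figure D3:**
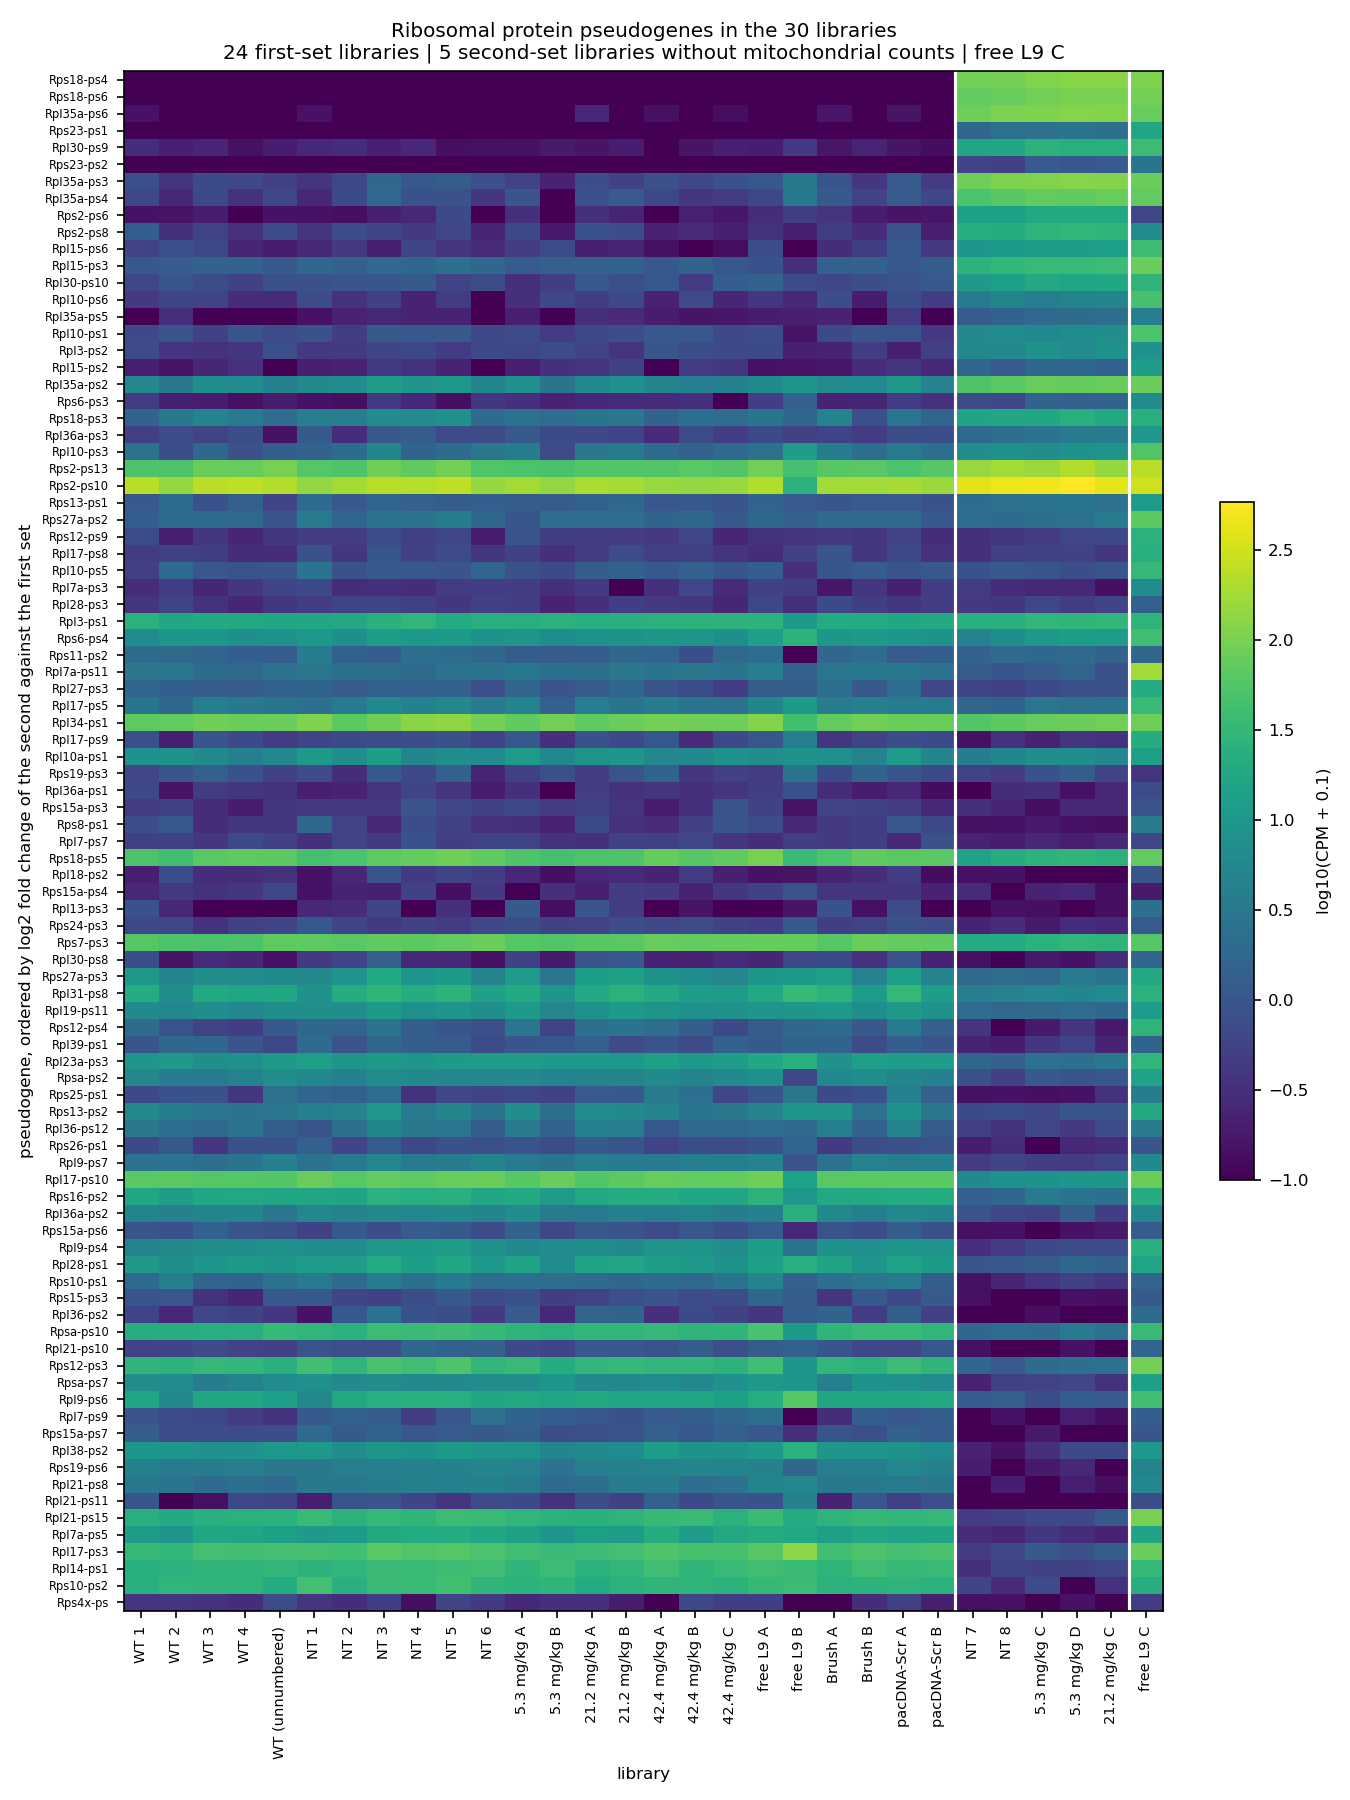
Level of 91 of the 92 pseudogenes (y axis, ordered by their fold change between the sets) in the 30 libraries (x axis), colored by log10 of CPM plus 0.1, with white lines between the first set, the 5 second-set libraries without mitochondrial counts and free L9 C. Most upper members are brighter in the 6 second-set libraries than in the first set, and most lower members are darker in the 5 but not in free L9 C.

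The members higher in the second set were led by genes that were almost unread in the first. Rps18-ps4 and Rps18-ps6, Rps23-ps1 and Rps23-ps2 had 0 counts in each of the 24 first-set libraries. Exons of protein-coding genes on the opposite strand covered 93.2% of Rps23-ps1 and 91.7% of Rps23-ps2. As strand was not given, reads of these 2 members cannot be told from reads of those genes. In the 6 second-set libraries Rps18-ps4 had 1199 to 2941 counts, Rps18-ps6 1055 to 2386, Rps23-ps1 38 to 188 and Rps23-ps2 9 to 32. Against the limit of 3 counts over the 24 first-set libraries together, Rps18-ps4 was at least 17860-fold higher, Rps18-ps6 at least 14600-fold, Rps23-ps1 at least 600.3-fold and Rps23-ps2 at least 166-fold. These 4 were among 316 genes of the table at 0 in the whole first set with 10 or more counts in at least 3 second-set libraries. Rpl35a-ps6 had 0 to 0.167 CPM in the first set, 86.4 to 119.6 CPM in the 5 libraries and 78.2 CPM in free L9 C. Every window of Rpl35a-ps6 was also found elsewhere, and its coding sequence was that of Rpl35a-ps2, -ps3 and -ps4. Its count therefore depends on how reads that match several places were assigned. Of the windows of Rpl30-ps9, 96.4% were also found elsewhere. Rpl30-ps9 had 0 to 0.337 CPM in the first set, 16.4 to 27.2 CPM in the 5 and 38.3 CPM in free L9 C. All 6 second-set libraries thus lay above every first-set library for these 6 members. They met the count rule through the second set only, so their fold changes are not given as tests. In the parents the difference was small beside this. Rps18 had a median of 2.69 CPM in the first set and 5.60 in the 5 libraries, and Rps23 had 141.3 and 167.7 CPM.

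Among the members with many counts in both sets, Rps2-ps10 was the highest. It had 25.3 to 256.6 CPM in the first set (median 182.5), 409.2 to 585.5 CPM in the 5 libraries and 316.5 CPM in free L9 C, and Rps2 itself had medians of 5.03 and 24.3 CPM. Rps2-ps13 had 45.7 to 99.0, 147.7 to 214.7 and 242.2 CPM in the same order. In both, every second-set library lay above every first-set library. Rpl34-ps1 did not separate the sets, with 43.0 to 139.6 CPM in the first, 57.2 to 91.6 CPM in the 5 and 85.1 CPM in free L9 C.

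The members lower in the second set were led by Rps10-ps2. It had 20.5 to 44.2 CPM in the first set, 0 to 0.661 CPM in the 5 libraries and 22.0 CPM in free L9 C, with a log2 fold change of -4.79 (SE 0.67, adjusted p = 2.6e-06, edgeR). Rpl14-ps1 had 23.1 to 41.6 CPM, 0.232 to 0.558 CPM and 32.7 CPM in that order, with a log2 fold change of -4.63 (SE 0.67, adjusted p = 4.2e-06). In both, the 5 libraries lay below every first-set library, while free L9 C lay within the first-set range. Rpl17-ps3 had 31.5 to 130.9 CPM in the first set, 0.372 to 1.29 CPM in the 5 and 79.7 CPM in free L9 C (log2 fold change -4.47, SE 0.66, adjusted p = 6.0e-06). Its parent Rpl17 rose, from a median of 31.7 CPM to 194.2 CPM in the 5 libraries (log2 fold change 2.23). Rpl21-ps15 had 20.1 to 37.7 CPM, 0.372 to 1.07 CPM and 97.8 CPM (log2 fold change -4.01, SE 0.88, adjusted p = 0.000914). Its parent Rpl21, a large-subunit gene, had medians of 38.4 and 249.4 CPM and rose with a log2 fold change of 2.08. Rpl7a-ps5 had 8.99 to 21.5 CPM in the first set, 0.129 to 0.308 CPM in the 5 libraries and 16.0 CPM in free L9 C, and met the count rule in the first set only. Its parent Rpl7a had medians of 45.5 and 273.3 CPM. Of the remaining abundant members, Rps7-ps3 had 50.6 to 81.1 CPM in the first set and 20.9 to 30.5 CPM in the 5, Rpl17-ps10 had 15.4 to 85.0 and 6.22 to 9.92 CPM, Rps18-ps5 had 37.0 to 97.5 and 14.7 to 29.2 CPM, and Rps12-ps3 had 9.82 to 53.5 and 1.13 to 2.45 CPM.

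Free L9 C therefore did not behave as the other second-set libraries did. The members counted next were chosen by the set comparison on these same libraries, so where the 5 libraries lay is a description. Of the 39 lower members 15 met the count rule through the first set only, and of the 26 higher members 10 through the second only. For the 39 members lower in the second set, the 5 libraries lay below the whole first set in 34, while free L9 C lay within the first-set range in 28 and above it in 11. It lay above all 5 libraries in each of the 39. For the 26 members higher in the second set, free L9 C lay above the first set in 25, and the 5 libraries did so in 23. In a fit without the 5 libraries, free L9 C alone stood for the second set. There, Rps10-ps2, Rpl14-ps1 and Rpl17-ps3 had log2 fold changes of -0.69, -0.26 and -0.26, and Rpl21-ps15 went in the other direction, with 1.76.

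**Figure D4:**
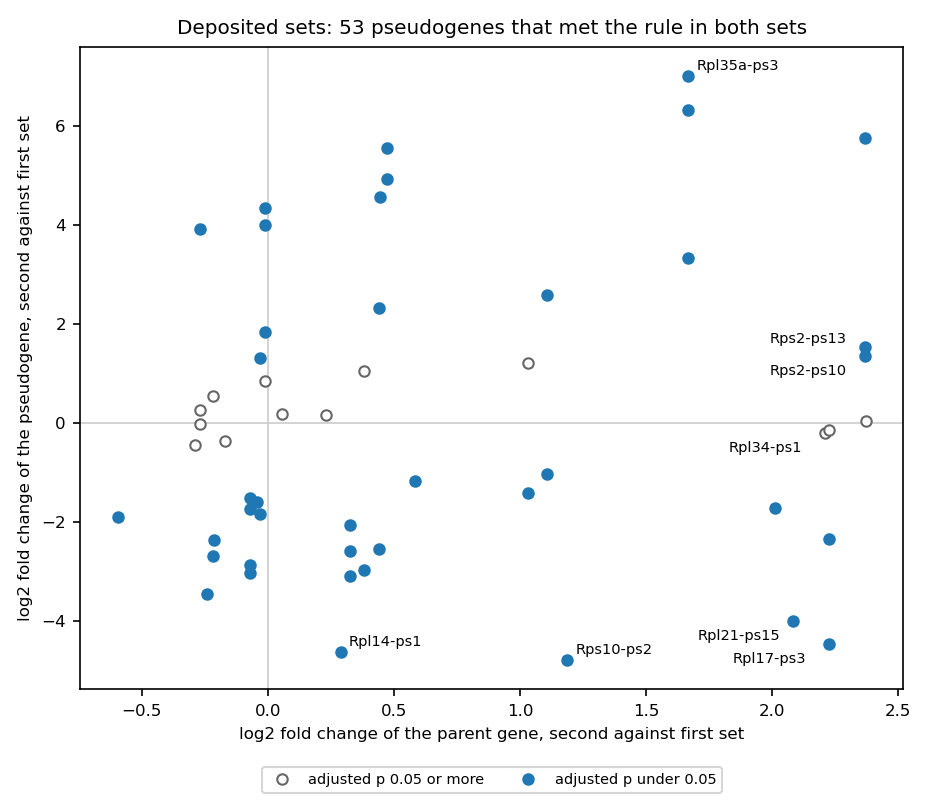
Log2 fold change between the second and the first deposited set for the 53 pseudogenes that met the count rule in both sets (y axis) against that of their parent gene (x axis), filled where the pseudogene passed an adjusted p of 0.05. Pseudogenes run from -4.79 (Rps10-ps2) to 7.01 (Rpl35a-ps3), while their parents stay between -0.60 and 2.37.

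Because the rule favoured a difference in members that met it in 1 set only, the 4 window classes are given for the 53 that met it in both sets. Of the 16 with no window found at that place alone, 12 passed, 5 higher and 7 lower in the second set, with a median log2 fold change of -0.19. Of the 24 with up to 50% of such windows, 7 were higher and 11 lower (median -0.17), and of the 10 with more than 50%, 4 were higher and 6 lower (median -1.39). Of the 3 with every window found there alone, none passed by edgeR or DESeq2, and 0 had an unadjusted p under 0.05. Among these 3, Rpl28-ps3 had a log2 fold change of 0.54 and Rps19-ps3 one of -0.44, both named after their values were seen. The 3 do not stand for the whole class of 11, in which 8 met the rule in the first set only. In the whole class 7 passed by edgeR, all lower.

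Within the fit that allows for the set, the members did not separate NT from WT mice. Over all genes 5.31% passed, but none of the 91 members did by edgeR, none had an unadjusted p under 0.05, and none passed by DESeq2. The smallest adjusted p was 0.356. The median log2 fold change over the members was 0.14, and 1 of the 44 parents passed. In the first set alone 1 member, Rpl21-ps10, passed and was higher in NT.

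The treatments with polymer gave no member that passed. At 5.3 mg/kg pacDNA-L9 none of 91 members passed (0% of all genes), with 1 at an unadjusted p under 0.05 and a median log2 fold change of -0.20. At 21.2 mg/kg none passed (0.0685% of all genes) and none had an unadjusted p under 0.05. At 42.4 mg/kg none passed (3.14% of all genes), 4 had an unadjusted p under 0.05, the smallest adjusted p was 0.17, and the median log2 fold change was 0.01. Brush gave none (0% of all genes; 0 at an unadjusted p under 0.05), and pacDNA-Scr gave none (0% of all genes; 1 at an unadjusted p under 0.05). DESeq2 also gave 0 members in each of these 5 comparisons.

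Free L9 was the only treatment with members that passed in this fit, and whether it differed from pacDNA-L9 was not tested. Over all genes 0.942% passed against NT, 0.765% higher. Of the 91 members 19 passed, all higher, and 56 had an unadjusted p under 0.05. The median log2 fold change was 1.46 over the members and -0.02 over all genes. None of the 44 parents passed by edgeR, where 7 had an unadjusted p under 0.05. The 16 parents of these 19 members had log2 fold changes of -0.77 to 1.09. Of the other 161 genes with -ps, 17 passed, 15 of them higher. The calls rested on a set term taken from the other second-set libraries and on 1 second-set animal, so the animals are given singly.

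Rpl23a-ps3, a copy of the large-subunit gene Rpl23a, had 18.0, 24.2 and 30.5 CPM in free L9 A, B and C. NT 1 to 6 had 8.82 to 13.1 CPM, and NT 7 and NT 8 had 1.72 and 1.44 CPM. All 3 free L9 animals lay above all NT animals (log2 fold change 2.25, SE 0.35, adjusted p = 0.00141, edgeR). Its parent Rpl23a had 87.9, 44.9 and 172.5 CPM in the same animals.

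Rps6-ps4 copies Rps6, the small-subunit protein phosphorylated by the S6 kinases. It had 14.3, 27.4 and 41.0 CPM in free L9 A, B and C, against 7.34 to 13.0 CPM in NT 1 to 6 and 4.60 and 7.48 CPM in NT 7 and NT 8. Again the 3 animals lay above all NT animals (log2 fold change 1.55, SE 0.25, adjusted p = 0.00167).

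In other called members the 3 animals stood differently against NT 1 to 6. Rpl17-ps9 had 0.956, 3.99 and 21.7 CPM in A, B and C against 0.482 to 0.749 CPM in NT 1 to 6 (log2 fold change 4.38, SE 0.73, adjusted p = 0.00248). Rpl17-ps5 had 5.23, 11.2 and 34.5 CPM against 2.28 to 5.86 CPM (log2 fold change 2.34, SE 0.44, adjusted p = 0.00791). In Rpl17-ps9 the animals spanned a wide range but all lay above NT, and in Rpl17-ps5 free L9 A lay within the NT range. Rpl36a-ps2 was high in free L9 B alone, with 4.38, 24.5 and 5.63 CPM against 4.79 to 5.95 CPM (log2 fold change 1.92, SE 0.35, adjusted p = 0.00529). Rpl7a-ps11, also called, was high in free L9 C, with 3.97, 1.35 and 174 CPM against 1.89 to 3.04 CPM. Rpl14-ps1 passed although A, B and C, with 41.6, 36.9 and 32.7 CPM, lay close to the 26.8 to 40.9 CPM of NT 1 to 6. There, free L9 C stood far above NT 7 and NT 8, at 0.232 and 0.512 CPM.

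**Figure D5:**
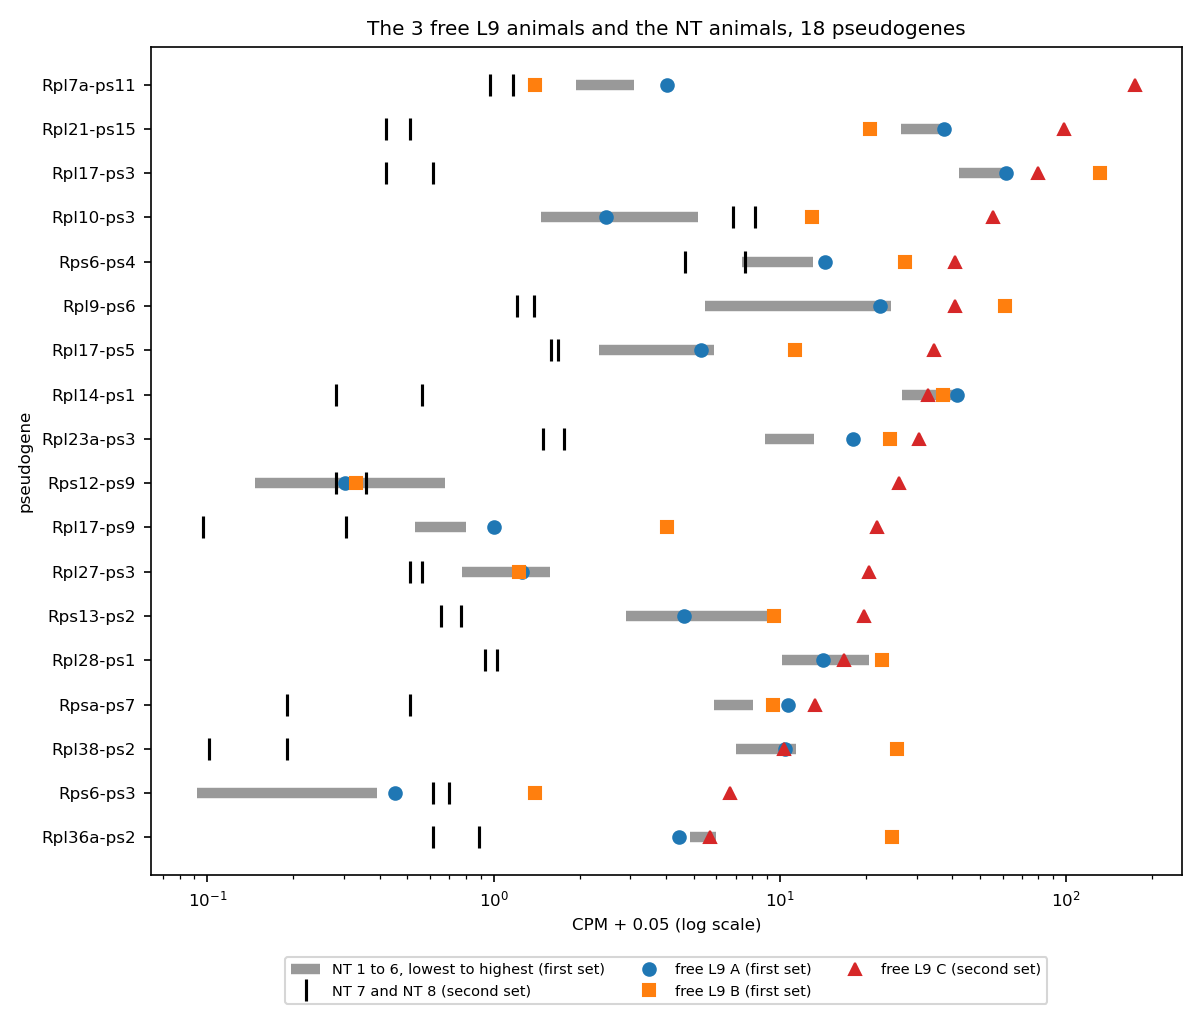
CPM plus 0.05 (x axis, log scale) of 18 of the 19 pseudogenes that passed in free L9 against NT (y axis), with the 3 free L9 animals as single points, NT 1 to 6 as a grey bar from lowest to highest and NT 7 and NT 8 as ticks. Free L9 A lies above the grey bar in 7 of the 18, free L9 B in 12 and free L9 C in 14.

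Over all 92 members the free L9 animals differed from each other. Against the range of NT 1 to 6, free L9 A lay above in 22, within in 64 and below in 6. Free L9 B lay above in 26, within in 34 and below in 32, and free L9 C above in 62, within in 26 and below in 4. The other treated first-set libraries lay above that range in 0 to 14 members and below it in 9 to 38. In free L9 B the parents Rps2 and Rps18 had 0 counts, and Rps2-ps10 had 25.3 CPM against 215.3 CPM in free L9 A. The share of library counts on members was 0.122% in free L9 A, 0.0948% in free L9 B and 0.248% in free L9 C (Wilson 95% confidence interval 0.2455% to 0.2508%, which covers counting error only).

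The calls depended on which animals were used. Within the first set, with free L9 A and B against NT 1 to 6, 2.24% of 15832 genes passed, and 6 members did. Among them, Rpl17-ps3, Rpl23a-ps3, Rpl36a-ps2 and Rps6-ps4 were higher and were among the 19, and Rpl15-ps3 was lower. Without free L9 A 46 members passed and without free L9 B 38, while without free L9 C 9 passed, 8 of which were among the 19. Leaving out NT 7 left 9 and leaving out NT 8 left 11. The share of all genes that passed is not given for these fits, so the counts do not set members apart from other genes. Among the members described above, Rpl36a-ps2 did not pass without free L9 B (adjusted p = 0.0973, edgeR), nor Rpl17-ps5 without free L9 C (adjusted p = 0.0624). Without the set as a covariate Rpl23a-ps3 and Rpl36a-ps2 did not pass (adjusted p = 0.365 and 0.502).

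Other measures of the libraries also set these animals apart. At equal depth free L9 B had 14351 genes with a count, the lowest of the first set, and free L9 A 17127 and C 19995. The summed CPM of 8 muscle fibre markers, led by Ckm and Acta1, was 100500 in free L9 B, against 159200 in A, 161700 in C and 127700 to 180900 in NT. Fibroblast markers summed to 358, 964 and 420 CPM in A, B and C (NT 339 to 791), adipocyte markers to 10.6, 347 and 44.9 (NT 7.08 to 343), erythroid markers to 306, 115 and 930 (NT 167 to 510), and 3 slow fibre markers to 503.8, 9.77 and 522.2 (NT 1.63 to 806.1). Macrophage markers summed to 61.4, 77.3 and 51.3 CPM (NT 53.1 to 99.1). Their part in the free L9 result was not tested.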

How the data were processed

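Poly(A)-selected RNA of mouse quadriceps was sequenced as paired reads of 150 bases. The authors deposited raw read counts per gene for 30 libraries, without normalization, mapped to GRCm39; the submitters' processing notes name HISAT2 2.0.5 and DESeq2. The counting options, strand setting and treatment of reads that match several places are not given in the sources used here. Groups came from the labels. A WT column could be tied to its group but not to a mouse number, and is called WT (unnumbered). No 2 libraries of a group agreed within sampling noise.

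Genes kept by filterByExpr (17518) were normalized by TMM and fitted with edgeR 4.0.16 in R 4.3.3, by a robust quasi-likelihood model with 8 conditions and the 2 deposited sets, and p-values were adjusted by Benjamini-Hochberg over all genes tested (threshold 0.05). Of the members, 91 were tested and Rps4x-ps was not. A few members and genes are counted but not reported here by name. The fit was tested on simulated data. Alternatives were other normalizations, filters, covariates and library subsets, DESeq2 1.42.0 and leaving out each library. Ratios of member to parent used 0.5 as pseudocount. Alignments to GRCm39 with GENCODE vM39 used Biopython 1.88 in Python 3.11.15. Values were given for the 10 members of highest mean CPM, up to 6 called members per condition comparison, the 5 highest and 5 lowest called between the sets, and the 3 highest and 3 lowest ratios to the parent; other members were named after their values were seen. The members, lists and comparisons were chosen with earlier results of these data known. Confidence intervals and the limit of 3 counts cover counting error only.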

Additional observations from a re-analysis of the deposited data

Results flagged for a closer look

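Among 24 named members, 68 groups of 4, 5 or 8 libraries (5.3 mg/kg, WT and NT) were tested for a library far from the others of its group, and 5 were found; chance gives about 1 in 20. Of these, 2 concerned 5.3 mg/kg A, where Rpl17-ps9 had 0.989 CPM (0.132 to 0.267 CPM in the other 3 libraries) and Rpl13-ps3 had 1.04 CPM (0 to 0.0441 CPM). In WT 1, Rpl13-ps3 had 0.795 CPM (0 to 0.169 CPM in the other 4 WT libraries) and Rpl35a-ps6 had 0.053 CPM, a level of a few reads at most, where the others had 0. In NT 3, Rpl13-ps3 had 0.512 CPM (0 to 0.22 CPM in the other 7 NT libraries). The group of 5.3 mg/kg holds 2 libraries of each deposited set, and the set was not allowed for here.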

How the results depend on the processing

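The number of members called in free L9 against NT (19) depended on the fit. It was 9 without the set as a covariate, 6 in the first set only, 6 without the 5 libraries lacking mitochondrial counts, 32 with a covariate for the 9 libraries named by running number, 6 of 26 tested where at least 10 counts were required in every library, and 40 by DESeq2; leaving out 1 library gave 9 (free L9 C or NT 7) to 46 (free L9 A). Between the deposited sets (65), 28 were called without those 5 libraries, 19 of the 26 with at least 10 counts in every library, and 23 of 31 with NT only; leaving out 1 library gave 59 to 77. NT against WT went from 0 to 1 in the first set only and to 1 without the 5 libraries, and 42.4 mg/kg went from 0 to 1 without free L9 B (0 to 1 over libraries left out). The 9 members above their parent became 18 per base of exon. Rpl21-ps15 turned from -4.01 to 1.76 between the sets without the 5 libraries. The cause was not tested, other than the smaller number of libraries or genes by construction. Leaving out the set comparison of members that met the rule in 1 set only, 372 of 385 fold changes of 10 named members under alternatives kept direction and side of the threshold and 12 lost the call. The share of counts on members with 1 library left out was 0.0997% to 0.102% in the first set and 0.153% to 0.176% in the second. With the replicate number as a block (WT and NT 1 to 4), 0 of 64 members tested were called, as without it. Libraries of the same number correlated at -0.02 to 0.24 (mean 0.135), against a mean of -0.048 for different numbers. With 4 pairs, these values cannot show whether the numbers pair the mice.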
